A study of Mus musculus with 26 samples.

Results

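Voltage-gated sodium and calcium channel genes were described in motor neuron spheroids made from HBG3 mouse embryonic stem cells, a line in which the promoter of the motor neuron gene HB9 (Mnx1) drives GFP. The members are the protein-coding genes whose symbols name a sodium channel pore or beta subunit (Scn), a calcium channel pore-forming subunit (Cacna1), an alpha2delta subunit (Cacna2d), a beta subunit (Cacnb) or a gamma-family protein (Cacng). They number 40 of the 56941 genes in the count table: 10 pore-forming Scn genes, 4 Scn beta genes, 10 Cacna1 genes, 4 Cacna2d genes, 4 Cacnb genes and 8 Cacng genes.

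RNA was sequenced from 26 bulk libraries in 5 groups, all differentiated with retinoic acid and purmorphamine, given CNTF and GDNF from day 5 and seeded on fibrin at about day 8. In the mechanical arm, spheroids lay on a magnetic silicone array that was moved at 4 Hz for 30 min each day (actuated, 4 libraries) or on the same array left still (static, 4 libraries). In the biochemical arm, 6 libraries each were labelled high intensity, low intensity and control. The design text describes medium taken from optically stimulated or resting muscle for this arm, but its sample names do not say which medium stands behind high and low intensity. All groups come from 1 reporter line, and its genotype label reads heterozygous blastocysts. The study asked whether the biochemical and the mechanical side of muscle exercise can be told apart in motor neurons.

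Sodium channels of this family open on depolarisation and carry the upstroke of the action potential, and their beta subunits adjust gating and bind adhesion molecules. Calcium channels turn the spike into calcium entry, with the Cav2 members at the presynaptic terminal, the Cav1 members on soma and dendrites and the low-threshold Cav3 members shaping firing near rest. Alpha2delta and beta subunits bring the calcium channel pore to the membrane, and several Cacng genes encode TARPs, auxiliary proteins of AMPA-type glutamate receptors.

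Depth set which libraries could be used. The 21 libraries with at least 1000000 counts on protein-coding genes entered the main analysis, 5 of control, 5 of low intensity, 4 of high intensity, 3 of static and 4 of actuated. Their totals ran from 1551334 to 3971348 counts in the biochemical arm and from 7269276 to 13162635 on the arrays. The other 5 (control 4, low intensity 6, high intensity 4 and 5, static 3) ran from 1536 to 1457250 counts and enter only the analysis of all 26. The labels do not say that replicates were separate cultures, so p-values measure only the spread between these samples. Cell type markers were checked first. All 6 general neuron markers and all 7 motor neuron markers passed the filter on low counts, the general neuron sum ran from 1812.5 to 2833 CPM (counts scaled to library size), and the skeletal muscle sum from 0 to 20.9 CPM, with Myod1, Myog, Tnnt3 and Mymk at 0 in the control libraries. The 6 astrocyte or radial glia markers also passed, and their sum ran from 2227 to 4436 CPM. Fibroblast or mesenchyme markers summed to between 156 and 2582 CPM. Markers of other cell types were thus present beside those of neurons.

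Levels were compared between genes per transcript length, as TPM rescaled so that protein-coding genes sum to 1000000 in each library. The highest member was Cacng4, which encodes a TARP, at 152 ± 23.3 (SD, n = 21). Next came Scn2a, the pore of Nav1.2, at 146 ± 56.9, Scn8a, the pore of Nav1.6, at 99.6 ± 25.8, the TARP gene Cacng3 at 88.1 ± 26.9 and Scn3a, the pore of Nav1.3, at 80.4 ± 15.9. Neighbours in this order differed by less than both SDs, except Scn2a and Scn8a, whose gap was below the SD of Scn2a only. In all, 9 members averaged 50 or more, 14 lay between 10 and 50, 7 between 1 and 10 and 10 under 1. Counts per TPM, which stand for the transcript length the authors' program assumed, varied over 2-fold between libraries in 14 of the 28 members with enough counts, by 9.16-fold in Cacnb4 and 3.80-fold in Scn2a, and per-length levels of those genes are uncertain.

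**Figure D1:**
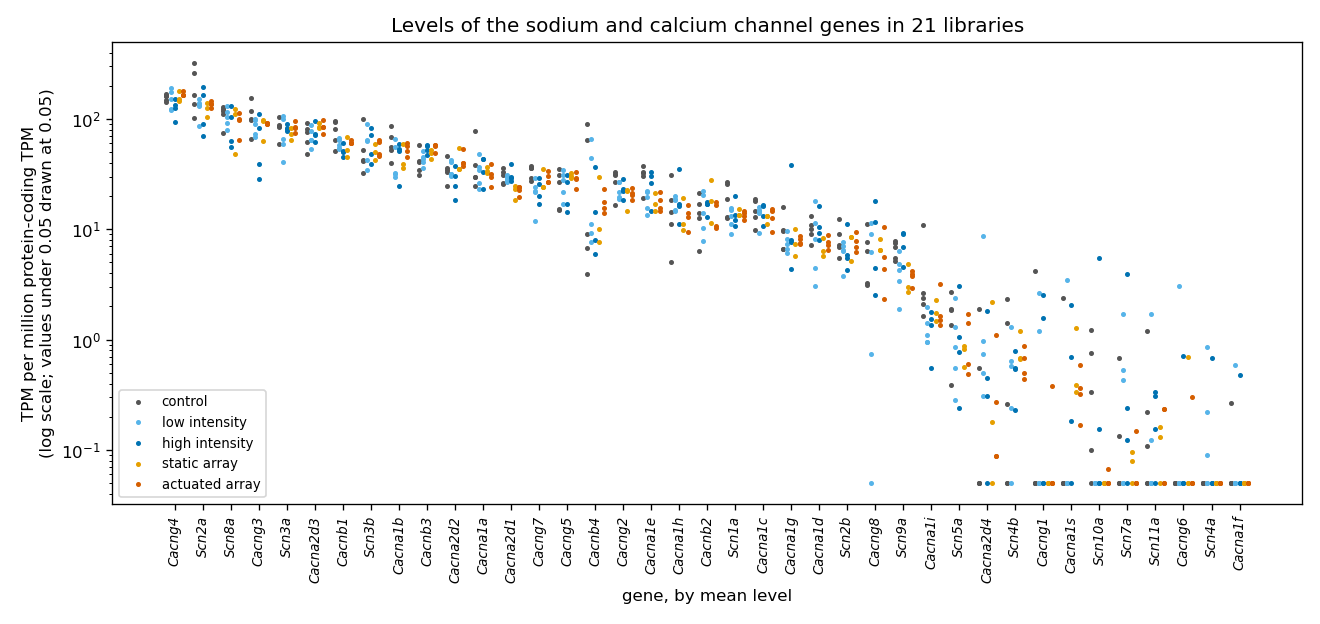
Rescaled TPM (log axis) of 39 members in each of the 21 libraries, genes ordered by mean level and points coloured by group. Cacng4, Scn2a and Scn8a lead, and the 10 members at the right average under 1.

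Among pore-forming sodium channel genes, 3 carried nearly all of the summed TPM. Scn2a held 40.9 ± 7.24% (SD, n = 21), Scn8a 28.7 ± 5.89% and Scn3a 23.8 ± 6.00%, while Scn1a held 4.40% and Scn9a, the pore of Nav1.7, 1.51%. The Scn2a share ran from 27.4% to 58.3% over the libraries, and the group means from 38.4% at high intensity to 45.2% in control lay within these spreads. The adult muscle pore gene Scn4a and the sensory neuron pore genes Scn10a and Scn11a were near absent in the 21 libraries, averaging under 1 rescaled TPM. Over all 26 libraries, Scn4a had at most 6 counts, Scn10a at most 16 and Scn11a at most 22. These maxima were in the shallow static 3, where they made 9.78, 26.1 and 35.9 CPM. Scn4a had a count of 0 in each of the 5 control libraries of the main analysis, which allows up to 0.795 to 1.32 CPM by counting error alone (3 counts of the total). Of the beta subunit genes, Scn3b held 49.4% of the summed TPM.

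The Cav2 genes led the calcium channel pores, with 67.6 ± 5.38% (SD, n = 21) of the summed Cacna1 TPM. Within them, Cacna1b, the pore of the N-type channel, held 31.3%, Cacna1a, the pore of the P/Q-type channel, 22.3% and Cacna1e, the pore of the R-type channel, 14.1%. The Cav3 genes held 17.3% and the Cav1 genes 15.0%. Cacna1s, the pore of the skeletal muscle channel, and the retinal Cacna1f averaged under 1 rescaled TPM, and Cacna1f was under 0.1 deposited TPM in every group. Among accessory genes, Cacna2d3 held 54.0% of the Cacna2d sum, Cacnb1 and Cacnb3 held 42% and 33.1% of the Cacnb sum, and Cacng4 and Cacng3 held 47.2% and 26.6% of the Cacng sum.

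**Figure D2:**
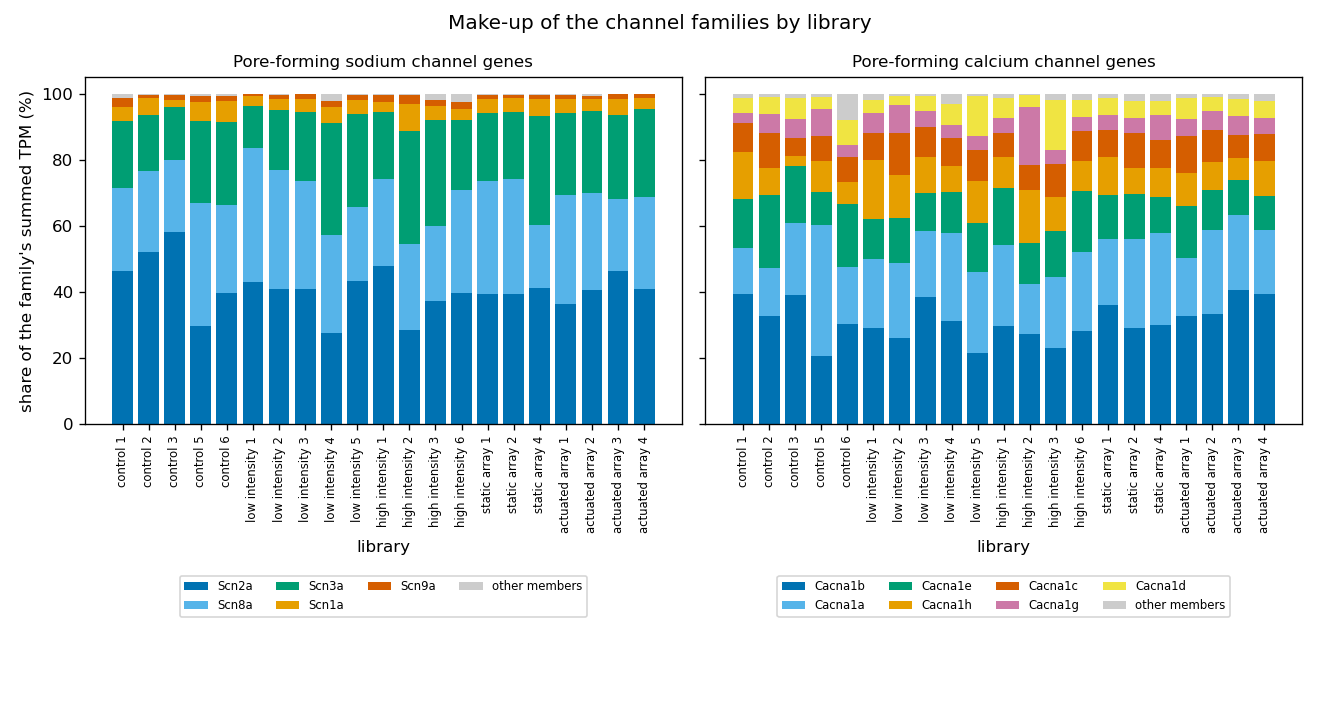
Stacked shares (%) of summed TPM of the pore-forming sodium channel genes (left) and calcium channel genes (right) in each of the 21 libraries. Scn2a, Scn8a and Scn3a fill most of every bar on the left, and Cacna1b, Cacna1a and Cacna1e most of every bar on the right.

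Start-site sequence was looked at because levels spread so widely within the families. RefSeq (GRCm38.p6) windows of 250 bases before a start were found for 30 of the 40 members, 41 windows in all. Of these, 13 (31.7%) held 20 or more CpG, against 17.9% of all 32851 windows in the table. All 13 were among the 34 windows of members that passed the count filter, and 0 were among the 7 windows of members that did not. Some members have more than 1 window. GGGCGG on either strand, the core of a GC box, was found in 36.6% of member windows and 32.7% of all windows. The 4 windows shown are those of Cacna1b and Cacnb1 because they recur in the comparisons with control, Scn2a as the leading sodium channel gene and Scn11a as a near-absent one, with each GGGCGG or CCGCCC in capitals. The windows are chr2:24763153-24763402 (minus strand), chr11:98022628-98022877 (minus), chr2:65668436-65668685 (plus) and chr9:119825457-119825706 (minus).
Cacna1b: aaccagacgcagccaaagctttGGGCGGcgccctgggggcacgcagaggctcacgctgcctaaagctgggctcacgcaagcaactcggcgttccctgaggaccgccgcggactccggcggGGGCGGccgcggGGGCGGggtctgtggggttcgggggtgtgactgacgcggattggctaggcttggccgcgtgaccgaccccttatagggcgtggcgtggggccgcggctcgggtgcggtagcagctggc
Cacnb1: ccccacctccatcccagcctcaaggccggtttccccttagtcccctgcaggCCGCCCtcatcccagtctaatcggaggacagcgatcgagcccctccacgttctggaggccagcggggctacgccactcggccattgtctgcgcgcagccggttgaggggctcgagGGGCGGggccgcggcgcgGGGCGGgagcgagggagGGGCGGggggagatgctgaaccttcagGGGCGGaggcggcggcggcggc
Scn2a: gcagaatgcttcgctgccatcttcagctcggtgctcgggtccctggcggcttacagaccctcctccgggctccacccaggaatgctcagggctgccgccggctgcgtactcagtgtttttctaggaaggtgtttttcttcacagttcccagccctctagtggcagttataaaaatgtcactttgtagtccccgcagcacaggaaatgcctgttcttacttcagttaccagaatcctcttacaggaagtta
Scn11a: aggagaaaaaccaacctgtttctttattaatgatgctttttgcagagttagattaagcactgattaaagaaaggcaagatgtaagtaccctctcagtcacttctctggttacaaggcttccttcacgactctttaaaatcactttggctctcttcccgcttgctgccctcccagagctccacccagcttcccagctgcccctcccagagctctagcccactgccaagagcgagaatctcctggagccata
Cacna1b had 29 CpG and 3 GC boxes in its window and Cacnb1 26 CpG and 5 boxes. The Scn2a window shown had 9 CpG and that of Scn11a 3, both with 0 boxes. Cacnb1 and Scn2a each had a further window, not shown, with 1 and 2 CpG and 0 boxes. Over all windows in the table the median was 6 CpG, and over member windows 8.

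Of the 40 members, 31 passed the filter on low counts and were tested, each with its p-value adjusted over all 14730 fitted genes (edgeR quasi-likelihood F-test, Benjamini-Hochberg, threshold 0.05). The 9 that did not are Cacna1f, Cacna1s, Cacna2d4, Cacng1, Cacng6, Scn4a, Scn7a, Scn10a and Scn11a. None of the 31 was called in any of the 5 comparisons. Nor was any with all 26 libraries (where 0.0402%, 0.0268% and 0.0134% of all genes were called at high intensity, low intensity and static against control) or with limma voom (0%, 0.00679% and 1.03%). Values below are TMM-scaled CPM, listed by library.

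Actuation of the array left no member past the threshold. The background was the same, with 0% of all 14730 genes called, and 0 of 31 members reached an unadjusted p under 0.05, against 0.38% of all genes. The members' median log2 fold change was 0.08 against 0.00 for all genes, with 8 members below 0 and 23 above, where 50.1% of all genes were below 0. Without static 4 the median was 0.00, and without static 1 it was 0.14. Scn2a had 248, 225 and 199 CPM on the static array and 213, 217, 235 and 226 on the actuated one. The groups overlapped, and the log2 fold change was −0.01 with a 95% interval of −0.28 to 0.26. Cacna1b had 151, 139 and 122 CPM without and 144, 144, 145 and 149 CPM with actuation, overlapping ranges that gave 0.09 (−0.21 to 0.39).

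The members of smallest p here were Cacna1h, Cacnb3 and Scn9a. Cacna1h, the pore of a T-type channel, had 44.5, 39.4 and 35.6 CPM on the static array and 51.7, 51.6, 38.8 and 46.9 on the actuated one, a log2 fold change of 0.25 (SE 0.23, adjusted p = 1). Cacnb3, a beta subunit gene, had 55.9, 61.8 and 49.7 CPM against 61.2, 54.6, 68.2 and 63.5, or 0.15 (SE 0.16). Scn9a had 14.4, 12.6 and 12.9 CPM against 19.6, 12.2, 17.3 and 14.9, or 0.26 (SE 0.28), and turned to −0.40 with all 26 libraries. Ranges overlapped in all 3 genes. Over the tested members, SEs in this comparison ran from 0.14 to 1.02 log2 units, with a median of 0.22. The lowest and highest interval limits of single members were −2.46 and 1.87. Changes smaller than a member's interval were not resolvable.

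High intensity against control also called 0 of 31 members, where 0.462% of all genes (68) were called. The members lay to the low side as a group. Their median log2 fold change was −0.25 against 0.00 for all genes, and 27 of 31 were below 0, against 49.7% of all genes. Without high intensity 3 the median was −0.13. An unadjusted p under 0.05 was reached by 9 members, all lower, against 7.28% of all genes lower at that level. All 6 tested Cacng genes and all 8 tested Cacna1 genes had negative fold changes, as did 5 of 6 Scn pore genes, all 4 Scn beta genes and 4 of 7 Cacna2d and Cacnb genes.

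Cacnb1, a beta subunit gene, came closest to the threshold. Control libraries held 81.7, 56.8, 84.2, 82.4 and 79.4 CPM and high-intensity libraries 42.4, 55.1, 49.1 and 59.2. Only control 2 reached into the high-intensity range. The log2 fold change was −0.58 (SE 0.14, adjusted p = 0.0538). Without control 2, or without low intensity 3, which shares the estimate of spread, Cacnb1 passed. Over all genes, 18 of 14658 and 107 of 14692 were called in these 2 fits.

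Cacng3 had 50.3, 78.5, 62.7, 50.5 and 64.3 CPM in control and 38.8, 34.1, 22.1 and 49.0 at high intensity, with no overlap. The log2 fold change was −0.76 (SE 0.20, adjusted p = 0.0715). Cacng4 had 229, 299, 307, 257 and 211 CPM in control against 191, 191, 146 and 220.4, where high intensity 6 reached above the lowest control. Its log2 fold change was −0.48 (SE 0.13, adjusted p = 0.0895). All 3 genes passed when high intensity 6 was left out, where 397 of all 14694 genes were called, against 68 with it. They also passed with DESeq2 (adjusted p = 0.0103 for Cacnb1, 0.0192 for Cacng3 and 0.0251 for Cacng4, where DESeq2 called 3.17% of all genes).

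The other members at an unadjusted p under 0.05 were Scn2a, Cacna1b (−0.42, SE 0.14, and −0.69 with all 26 libraries), Scn8a (−0.26 with all 26 libraries), Cacna2d2, an alpha2delta subunit gene (−0.48, SE 0.18), and the TARP genes Cacng7 (−0.58, SE 0.22) and Cacng2 (−0.41, SE 0.18). Adjusted p in these 6 lay between 0.126 and 0.251. Precision varied with level, as SEs ran from 0.12 to 1.02 log2 units, widest in the sparse Scn4b. Groups did not overlap in 3 members, Cacng3, Cacna1b and Cacna1i, all lower, against 1.49% of all genes lower without overlap. Scn2a had 248, 325, 261, 238 and 261 CPM in control and 232, 191, 154 and 239 at high intensity, or −0.38 (SE 0.12, adjusted p = 0.126). Its groups overlapped by 1 library. Scn8a had 167, 256, 229, 238 and 233 CPM against 180.1, 150.0, 114 and 213, or −0.45 (SE 0.16, adjusted p = 0.176). All high-intensity values lay under the controls other than control 1. The beta subunit gene Scn3b ran from 71.8 to 93.2 CPM in control and from 58.0 to 91.2 at high intensity, and Cacnb3 from 42.1 to 65.0 and from 50.3 to 61.5, 1 of 4 members above 0 (0.27).

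**Figure D3:**
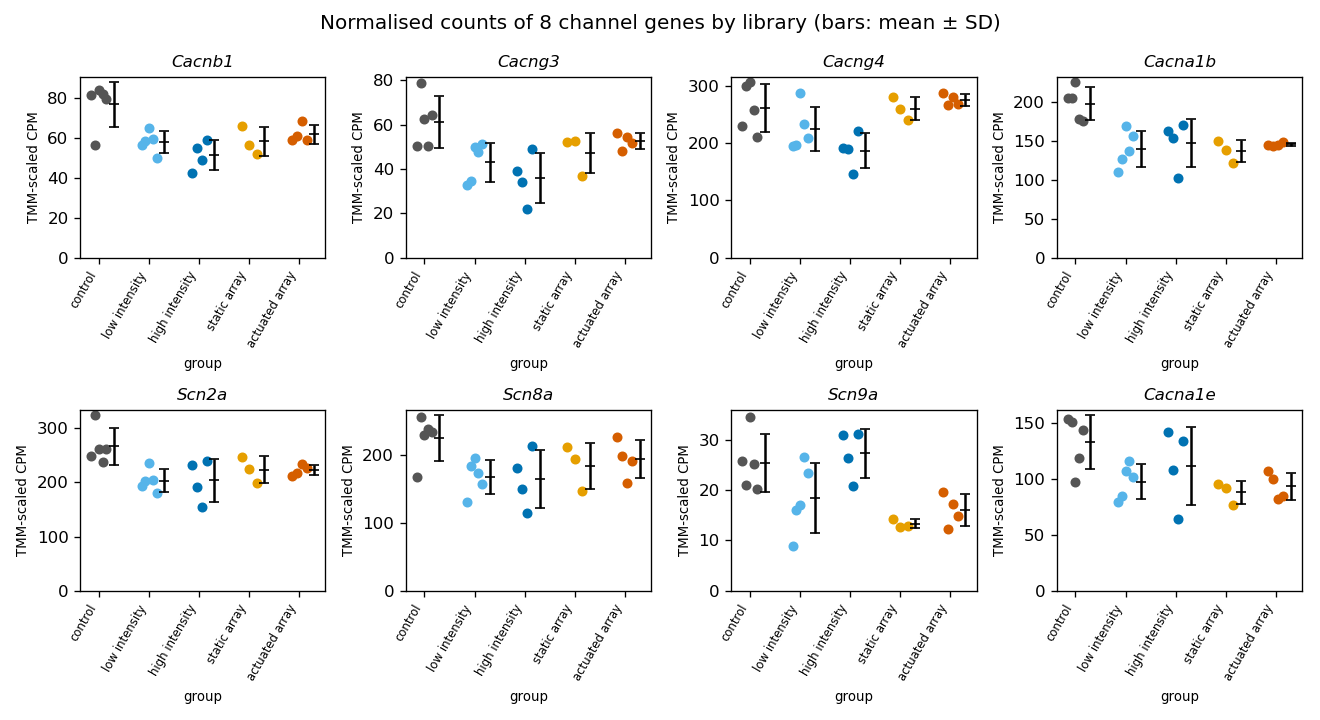
TMM-scaled CPM of 8 members by library and group, each point 1 library, with the mean and SD beside each group. Cacng3 and Cacna1b at high intensity lie wholly below control, while static and actuated points overlap in all 8 genes.

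Marker sums of cell types also differed between high intensity and control. None of the 6 general neuron, 7 mesenchyme and 7 motor neuron genes was called, against 0.462% of all genes. The general neuron sum was 2649.6 ± 159 CPM in control (n = 5) and 2215 ± 387 at high intensity (n = 4), with 6 of 6 genes below 0. Fibroblast or mesenchyme markers ran from 364 to 929 CPM in control and from 940.2 to 2416 at high intensity, with 7 of 7 genes above 0. Motor neuron markers were 661 ± 115 and 490.5 ± 113 CPM, with 7 of 7 genes below 0. Their part in the channel result was not tested. In bulk RNA, fewer neurons and less channel RNA per neuron cannot be told apart.

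Low intensity against control called 0 of 31 members, with 0.597% of all genes (88) called. The median member log2 fold change was −0.34 against −0.01 for all genes, and 25 of 31 lay below 0, against 50.9% of all genes. Of 8 members at an unadjusted p under 0.05, all were lower, against 6.61% of all genes. All 6 Scn pore genes and 7 of 8 Cacna1 genes were below 0. This comparison and the one at high intensity share their control libraries.

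Cacna1b had 205, 205, 226, 178 and 176 CPM in control and 110.4, 127, 169, 137 and 157 at low intensity, with no overlap. Its log2 fold change was −0.50 (SE 0.13, adjusted p = 0.0612). It passed when low intensity 3 or high intensity 3 was left out, where 264 of 14692 and 221 of 14584 genes were called. It also passed with DESeq2 (adjusted p = 0.0124). Scn2a at low intensity held 194, 203, 236, 204 and 179.9 CPM, all under the lowest control, or −0.39 (SE 0.12, adjusted p = 0.10; DESeq2 0.0320, with 3.2% of all genes called). Cacnb1 held 56.4, 58.4, 65.1, 59.4 and 50.0 CPM, which overlapped only control 2, or −0.41 (SE 0.13, adjusted p = 0.119).

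The remaining members at an unadjusted p under 0.05 were Cacng3 (−0.51, SE 0.19), Scn8a (−0.42, SE 0.15), Cacna1e (−0.45, SE 0.17), Cacng7 (−0.46, SE 0.21) and Cacna1a. In addition to Cacna1b and Scn2a, Cacng7 did not overlap between low intensity and control, 3 members against 0.971% of all genes lower without overlap. The P/Q-type gene Cacna1a had 88.0, 103, 101, 117 and 95.4 CPM in control and 79.7, 72.7, 90.9, 99.9 and 81.6 at low intensity, or −0.25 (SE 0.12). Its groups overlapped in part. Cacna2d3 ran from 90.4 to 148 CPM in control and from 87.3 to 138 at low intensity, which overlapped widely. The general neuron sum was 2356 ± 316 CPM at low intensity with 5 of 6 genes below 0, and Elavl4 was lower by the test (−0.59, adjusted p = 0.0370). Motor neuron markers were below 0 in 6 of 7 genes, with a median of −0.51. The 6 astrocyte or radial glia markers had a median of 0.22. Of these, Nes was higher by the test (1.43, adjusted p = 0.0443), while 1, the radial glia gene Fabp7, was below 0 (−0.33). Mesenchyme markers ran from 276 to 2582 CPM, with 7 of 7 genes above 0. Their part was not tested.

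High against low intensity called 0 of 31 members and 0% of all genes. An unadjusted p under 0.05 was reached by 2 members, against 7.68% of all genes. Of these, Scn9a had 8.85, 16.1, 17.0, 26.6 and 23.5 CPM at low and 31, 26.3, 20.8 and 31.1 at high intensity, a log2 fold change of 0.60 (SE 0.25, adjusted p = 0.606). Its values overlapped between the groups. Cacng4 was not one of the 2 and differed by −0.26 (SE 0.13, adjusted p = 0.670). The median over members was −0.02, with 16 of 31 below 0 against 48.5% of all genes, and from −0.07 to 0.08 leaving out single libraries.

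**Figure D4:**
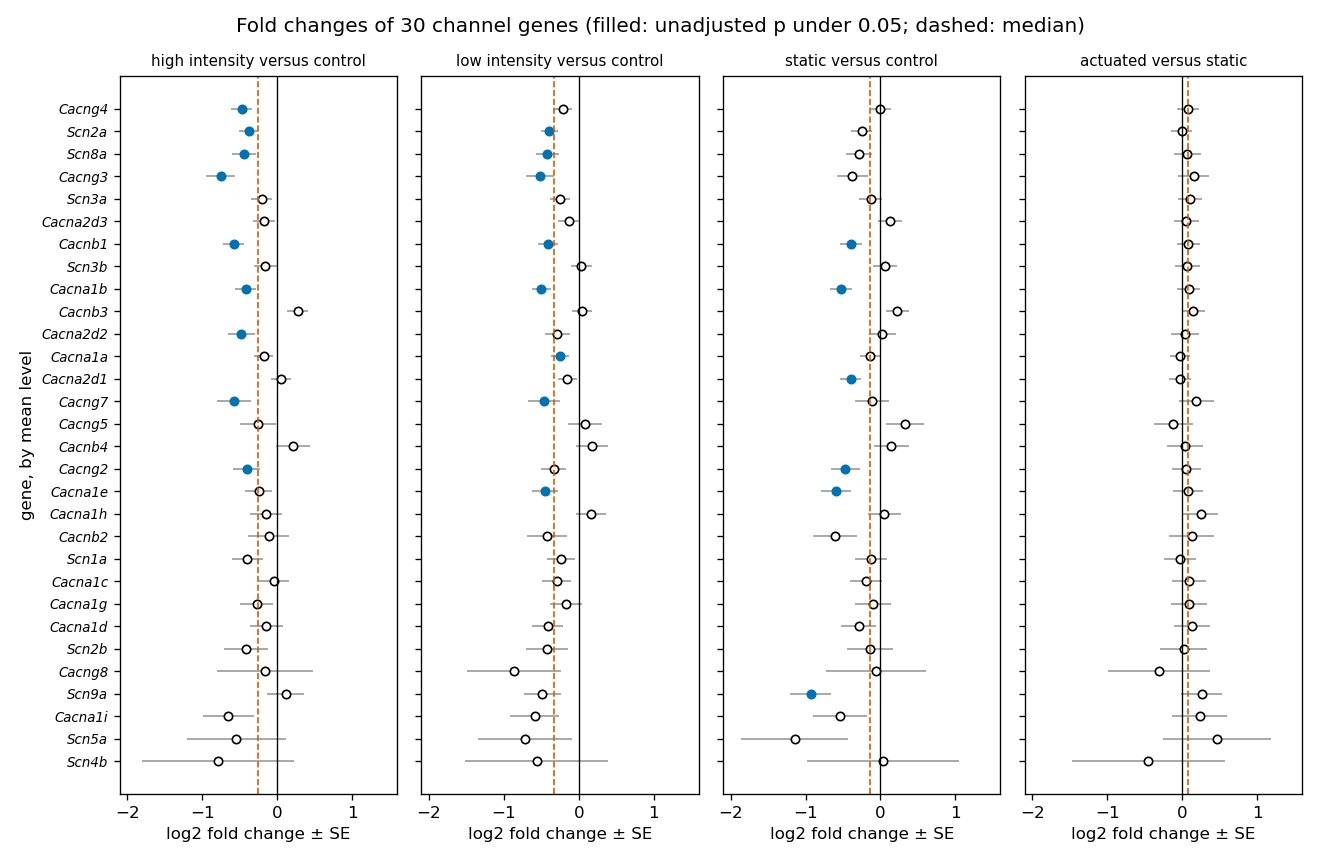
Log2 fold change ± SE of 30 tested members in 4 comparisons, ordered by level, with filled points at an unadjusted p under 0.05 and the dashed line at the median of all 31. Against control most points lie left of 0, and in actuated against static they scatter around 0.08.

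Static array against control called 0 of 31 members, with 0.713% of all genes (105) called. Arm and array cannot be told apart here, as static and control libraries also differ in depth. The median was −0.13 against 0.00 for all genes, with 22 of 31 members below 0 against 50.3% of all genes. With all 26 libraries the median of these members was −0.03 against 0.09 for all genes, and 16 of 31 were below 0. Of the 21 libraries, leaving out static 1, static 2, control 5 or control 6 gave a median of −0.26, −0.25, −0.22 or −0.21. At an unadjusted p under 0.05 there were 6 members, all lower, against 6.46% of all genes. Cacna1b differed by −0.53 (SE 0.15, adjusted p = 0.10; DESeq2 0.0136, with 2.59% of all genes called), Scn9a by −0.93 (SE 0.27, adjusted p = 0.116; DESeq2 0.0298, but −0.26 with all 26 libraries) and Cacna1e by −0.59 (SE 0.20, adjusted p = 0.171). The alpha2delta gene Cacna2d1 (−0.39, SE 0.14), Cacnb1 (−0.40, SE 0.15, and −0.16 with all 26 libraries) and Cacng2 (−0.47, SE 0.19) completed the 6. Cacna1b passed when high intensity 3 was left out, where 137 of all 14584 genes were called.

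For Scn9a the control libraries had 25.9, 21, 34.6, 25.3 and 20.3 CPM, all above the static ones given before. For Cacna1e they had 153, 151, 97.3, 119 and 143 CPM against 95.8, 91.7 and 76.5. Static lay below every control in both, and also in Cacna1b and Cacna1i, 4 members against 3.62% of all genes lower without overlap. The oligodendrocyte sum was 327 ± 158 CPM on the static array and 99.2 ± 28.4 in control, with 4 of 4 tested genes above 0. Astrocyte or radial glia markers summed to 3717 ± 384 CPM on the static array and 2616 ± 354 in control, with 6 of 6 genes above 0. Motor neuron markers were below 0 in 5 of 7 genes, and the choline transporter gene Slc5a7 was lower (−1.88, adjusted p = 0.00392). Their part in the channel values was not tested.

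The direction against control depended on the scale. On deposited TPM, protein-coding genes held 37.3% of the total in control and 60.1%, 52.2% and 54.7% at low intensity, high intensity and static, while miscellaneous RNA held 41.6% in control and 17.4%, 24.6% and 27.4%. On log2(TPM + 1), the median of all genes shifted by 0.53 (high intensity), 0.64 (low intensity) and 0.50 (static) against control. Limma on that scale called 1, 7 and 0 members, all higher than control, where 15.8%, 36.9% and 7.41% of all genes were called. Few members were then below 0 (5, 2 and 4 of 31), but 25, 21 and 22 of 31 lay below that shifted median, and the members' medians were 0.23, 0.42 and 0.28. Measured against all genes, the members were on the low side on both of these scales. Separation of groups seen on counts was not always kept on rescaled TPM. There Cacng3 ran from 65.9 to 155 in control and from 28.3 to 112 at high intensity. Scn2a ran from 102 to 319 in control and from 85.7 to 153 at low intensity. Scn9a stayed separate, from 5.15 to 7.90 in control and from 2.69 to 4.83 on the static array. Lower in all 3 comparisons on the count scale were 20 of 31 members and higher in all 3 were 2, with the controls shared.

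**Figure D5:**
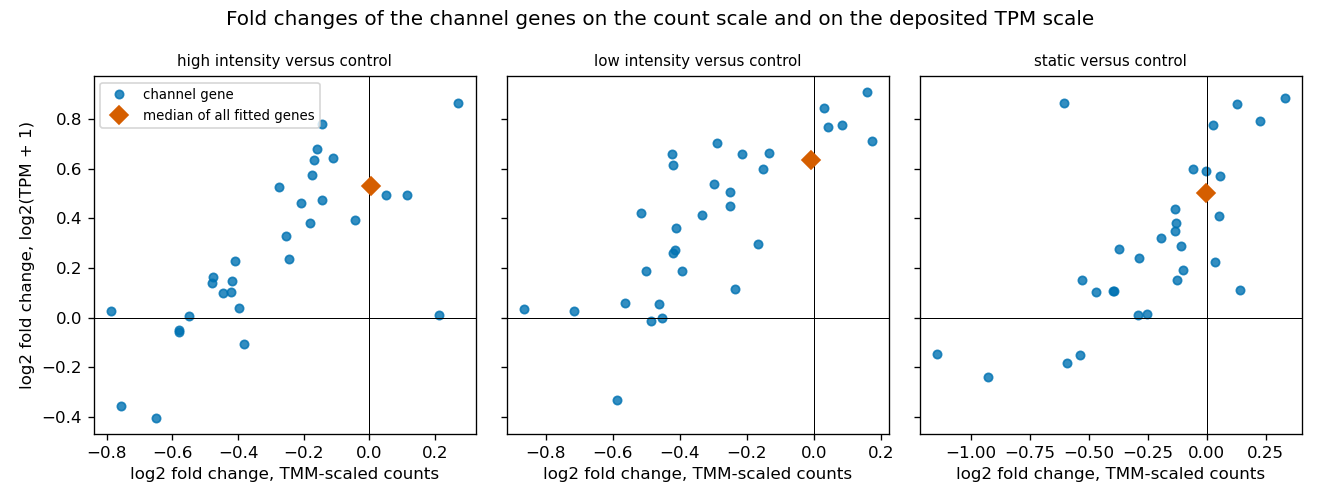
Log2 fold change of 30 members on TMM-scaled counts (x) and on log2(TPM + 1) (y), 1 panel per comparison with control, with the median of all fitted genes as a diamond. Most members lie left of and below the diamond, though above 0 on the TPM axis.

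Channel partners, a list of 43 genes for ankyrins, fibroblast growth factor homologues, calmodulins, small GTPases that inhibit calcium channels and other ion handling genes, were counted in the same way. Of 41 tested, 0 were called in the first 4 comparisons and 1 against 0.713% of all genes in static against control: Ank3, which encodes the ankyrin that anchors sodium channels at the axon initial segment. Ank3 had 1045, 1182, 1174, 1224 and 1016 CPM in control and 817, 798 and 651 on the static array, with no overlap. Low intensity (689 to 980 CPM) and actuated (694 to 939) also lay below every control, while high intensity (698 to 1085) overlapped. From control to static, Ank3 fell by 0.58 on the log2 scale (SE 0.14, adjusted p = 0.0447). That call did not hold with all 26 libraries, where 0 genes were called lower and 2 higher in this comparison. At an unadjusted p under 0.05 there were 18 partners (15 lower) at high intensity, 10 (7 lower) at low intensity, 5 between the intensities (4 lower), 7 (5 lower) for static and 0 for actuation. The share at that level over all genes was 15.9%, 15.2%, 7.68%, 12.6% and 0.38%.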

How the data were processed

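Per the labels' protocols, RNA was made into libraries with a low-input kit that removes rRNA fragments and sequenced as paired reads of 50 bases. The authors deposited estimated counts (each an expected count per gene, not scaled for depth, as whole numbers) and TPM values (scaled to 1000000 per library) for 56941 genes. The submitters' processing notes name BWA 0.7.12-r1039, bedtools 2.25.0, STAR and Salmon and the builds mm10, hg19 and GRCm39, without roles. Biotypes came from the count table, since the TPM table's column differs. Counts were rounded and fitted with edgeR 4.0.16 (R 4.3.3): filterByExpr, TMM, all 5 groups in 1 quasi-likelihood model over the 21 libraries with at least 1000000 protein-coding counts. The 95% intervals use a normal approximation and cover the spread between these samples only. DESeq2 1.42.0, limma 3.58.1 voom, limma on log2(TPM + 1), log2(TPM + 0.1) and log2(rescaled TPM + 1), other filters, thinning, a replicate block and leaving out each library were alternatives, with the rescaled-TPM one added after seeing the data. Members and lists were chosen with earlier results of these data known. Genes named in full are the 2 of highest level in each of 5 classes and the 3 of smallest p in each comparison, and 1 member among them is counted but not reported here. The script was tested on simulated data. All 325 library pairs differed by more than sampling noise, so none was counted as a duplicate.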

Additional observations from a re-analysis of the deposited data

Results flagged for a closer look

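A single control library stood apart from the other 4 in 3 members, found among 56 gene and group pairs looked at, where chance gives about 1 in 20. Cacnb1 was 56.8 CPM in control 2 (the others 79.4 to 84.2), Scn2a was 325 CPM in control 2 (the others 238 to 261), and Cacnb3 was 65.0 CPM in control 5 (the others 42.1 to 44.6).

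Near-absent members had counts in 2 of the shallow libraries left out of the main analysis, at CPM above the highest control. In static 3, 6 counts of Cacna1f made 9.78 CPM, 18 of Cacna2d4 29.3, 16 of Scn10a 26.1, 22 of Scn11a 35.9, 6 of Scn4a 9.78 and 16 of Scn7a 26.1. In high intensity 5, 4 counts of Cacna2d4 made 8.08 CPM, 10 of Scn11a 20.2 and 4 of Scn7a 8.08. The highest control values of these genes were between 0 and 3.35 CPM.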

How the results depend on the processing

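The number of channel genes called stayed at 0 under voom, all 26 libraries and the replicate block in every comparison. For high intensity against control it was 2 with no low-count filter, 3 with DESeq2, 1 with log2(TPM + 1) and 1 with log2(TPM + 0.1) (Cacnb3, higher), and from 0 to 3 leaving out single libraries. For low intensity it was 1 with no filter, 2 with DESeq2, 7 on each TPM scale (all higher) and from 0 to 1 leaving out libraries. For static against control it was 2 with DESeq2 and from 0 to 1 leaving out libraries. On log2(TPM + 1) and log2(TPM + 0.1), signs reversed for Cacna1b (0.19 and 0.20 at low intensity, 0.15 and 0.16 static), Cacnb1 (0.36 and 0.37, low intensity), Cacng4 (0.17 and 0.17, high intensity) and Scn2a (0.19 and 0.19, low intensity), with the all-gene shift given above. Scn9a in actuated against static was −0.40 with all 26 libraries. The cause was not tested. Over all genes, calls against control (68 high, 88 low, 105 static, of 14730) were 6, 4 and 2 of 14907 with all 26 libraries. They were 467, 471 and 381 of 14721 with DESeq2, and 0, 1 and 151 of 14730 with voom. On log2(TPM + 1) they were 2324, 5440 and 1091 of 14730, and on log2(TPM + 0.1) 2292, 5537 and 1145. On rescaled TPM they were 29, 17 and 19. With only the 2 groups compared they were 17 of 13091, 21 of 12428 and 42 of 13335. Unfiltered they were 700, 660 and 459 of 37248. Leaving out single libraries gave from 0 to 397 at high intensity, 2 to 264 at low intensity and 18 to 141 for static. After subtracting each gene's group mean of log CPM, same-numbered libraries of the 2 groups compared correlated between −0.22 and 0.18. Differently numbered ones were not compared, so this does not settle whether the numbers pair them. The block called 0, 2, 8, 0 and 36 genes. Depth limits the members under 1 rescaled TPM most.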
